A study of Mus musculus with 7 samples.

Results

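The genes described here are 7 transcriptional targets of ERK signalling that act as its feedback arm or report its output, namely the phosphatase genes Dusp4 and Dusp6, the inhibitor genes Spry2, Spry4 and Spred1, and the ETS factor genes Etv4 and Etv5. They were chosen by symbol from the deposited expression table, and all 7 were found among its 22556 genes. The values come from ChrRNA-seq, which sequences RNA retained on chromatin and therefore enriches for nascent transcripts, in the C7H8 line of XX mouse embryonic stem (mES) cells of mixed Cast and 129S background. Every library, control or treated, came from cells in which a TetOn promoter stands in place of the endogenous Xist promoter on the Cast allele, and in which doxycycline (Dox, 1.0 µg/mL for 24 h) switched Xist on. Before Dox, cells were held for 6 h with the solvent DMSO (3 libraries) or with STM2457, a small-molecule inhibitor of the RNA N6-methyladenosine methyltransferase METTL3, at 10 µM (2 libraries) or at the higher doses of 20 µM and 30 µM (1 library each), and the same agent was kept on through the Dox period. Cells were grown in serum and LIF on inactivated mouse fibroblast feeders, so the model is a single engineered line with feeder cells in the culture.

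In the ERK cascade, a growth factor such as FGF4 binds its receptor tyrosine kinase, adaptors load RAS with GTP, and RAF, MEK and ERK kinases are activated in turn. Active ERK induces its own brakes. DUSP phosphatases remove phosphate from ERK, Sprouty and SPRED proteins act upstream around RAS and RAF, and ETV4 and ETV5 are transcription factors whose genes are standard readouts of FGF and ERK signalling. In mES cells, autocrine FGF4 acting through ERK primes cells to leave the naive state, and LIF with serum lets the pathway stay active.

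The promoters of 4 of the 7 genes (Dusp6, Spry2, Spred1 and Etv5) were found in the RefSeq promoter table (GRCm38.p6). The 250 bases before the RefSeq start are shown for Dusp6, Spry2 and Spred1, whose differences within the pairs at 10 µM, given further on, were above 0, below 0 and close to 0. Capitals mark octamers bound by Capicua (CIC), a repressor that ERK inactivates (TGAATGAA, TGAATGGA, TCAATGAA or TCAATGGA, either strand), and the ETS core CGGAAG, either strand. No marked octamer overlapped a marked core.
Dusp6, chr10:99262981-99263230, plus strand: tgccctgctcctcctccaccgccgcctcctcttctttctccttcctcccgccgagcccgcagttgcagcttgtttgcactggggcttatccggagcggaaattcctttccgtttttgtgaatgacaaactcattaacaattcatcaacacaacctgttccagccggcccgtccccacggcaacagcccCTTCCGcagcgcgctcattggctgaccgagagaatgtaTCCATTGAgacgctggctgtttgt
Spry2, chr14:105896820-105897069, minus strand: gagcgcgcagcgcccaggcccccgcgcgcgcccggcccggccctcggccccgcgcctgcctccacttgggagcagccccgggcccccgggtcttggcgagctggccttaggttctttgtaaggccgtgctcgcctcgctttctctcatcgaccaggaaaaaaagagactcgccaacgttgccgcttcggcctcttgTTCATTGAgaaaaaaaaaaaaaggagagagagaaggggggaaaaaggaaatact
Spred1, chr2:117120821-117121070, plus strand: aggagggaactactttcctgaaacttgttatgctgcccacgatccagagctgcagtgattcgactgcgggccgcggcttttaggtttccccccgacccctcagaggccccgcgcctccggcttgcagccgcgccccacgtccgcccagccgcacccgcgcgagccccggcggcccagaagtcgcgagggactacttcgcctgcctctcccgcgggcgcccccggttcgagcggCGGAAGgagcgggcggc
The Dusp6 window held a CIC octamer that begins 24 bases before the start and an ETS core that begins 62 bases before it. The Spry2 window held a CIC octamer that begins 54 bases before the start and no match to CGGAAG. The Spred1 window held an ETS core 17 bases before the start and no octamer. Neither of the 2 Etv5 windows held a match to these letters. Of all 32851 windows of the same length in the table, 3.19% held a CIC octamer and 13.6% held CGGAAG, either strand. These motifs were picked after the sequences had been seen, and a match is a description of letters, not of binding.

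Levels are given as RPM, in which the read pairs on a gene, exons and introns included, are scaled so that all genes of a library sum to 1000000. The libraries held between 9300549 (20 µM) and 28030180 (DMSO replicate 2) read pairs, with a median of 23367051. All 7 genes passed a filter of 1 RPM on the mean level, as did 13599 genes in all. Expression outside the genes listed here divided the libraries into 2 sets. The first principal component, which held 78.8% of the variance over 13020 autosomal genes, placed DMSO replicates 1 and 2 and both 10 µM libraries in set 1, and DMSO replicate 3 with the 20 µM and 30 µM libraries in set 2. The higher doses therefore have only DMSO replicate 3 as a control of their own set, and over all libraries dose and set cannot be told apart fully. Of the 10 ES cell markers, 9 were detected, among them Nanog at 71.4 to 95.7 RPM, while Sox2 was listed at 0 in all 7 libraries. In the deposited table Sox2 lies inside Sox2ot on the same strand, so whether its read pairs were left unassigned cannot be told from these values. Klf4 (56.0 to 70.5 RPM in set 1 and 23.4 to 38.0 RPM in set 2) and Tfcp2l1 (382 to 455 and 251 to 308 RPM) were lower in all set 2 libraries. Sall4 was higher in all of them (41.2 to 54.6 and 61.1 to 82.8 RPM). The other ES cell markers detected overlapped between the sets. The 12 fibroblast markers other than Fn1 summed to 24.3 to 30.8 RPM, most of it Fbn1, and Col1a1 did not exceed 0.860 RPM. The 11 that remain without Fbn1 summed to 4.96 to 7.08 RPM in set 1 and to 12.1 to 13.1 RPM in set 2, with Col5a2 at 1.49 to 2.53 and 6.38 to 7.53 RPM. Fn1 (869 to 1148 RPM in set 1 and 423 to 603 RPM in set 2) went the other way, and Fbn1 overlapped between the sets, with its highest level in set 1. The part of these ES cell and fibroblast markers in the higher levels of Spry4, Spred1 and Etv4 in set 2 was not tested. In these bulk libraries, fewer cells of a type and less RNA per cell cannot be told apart.

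**Figure D1:**
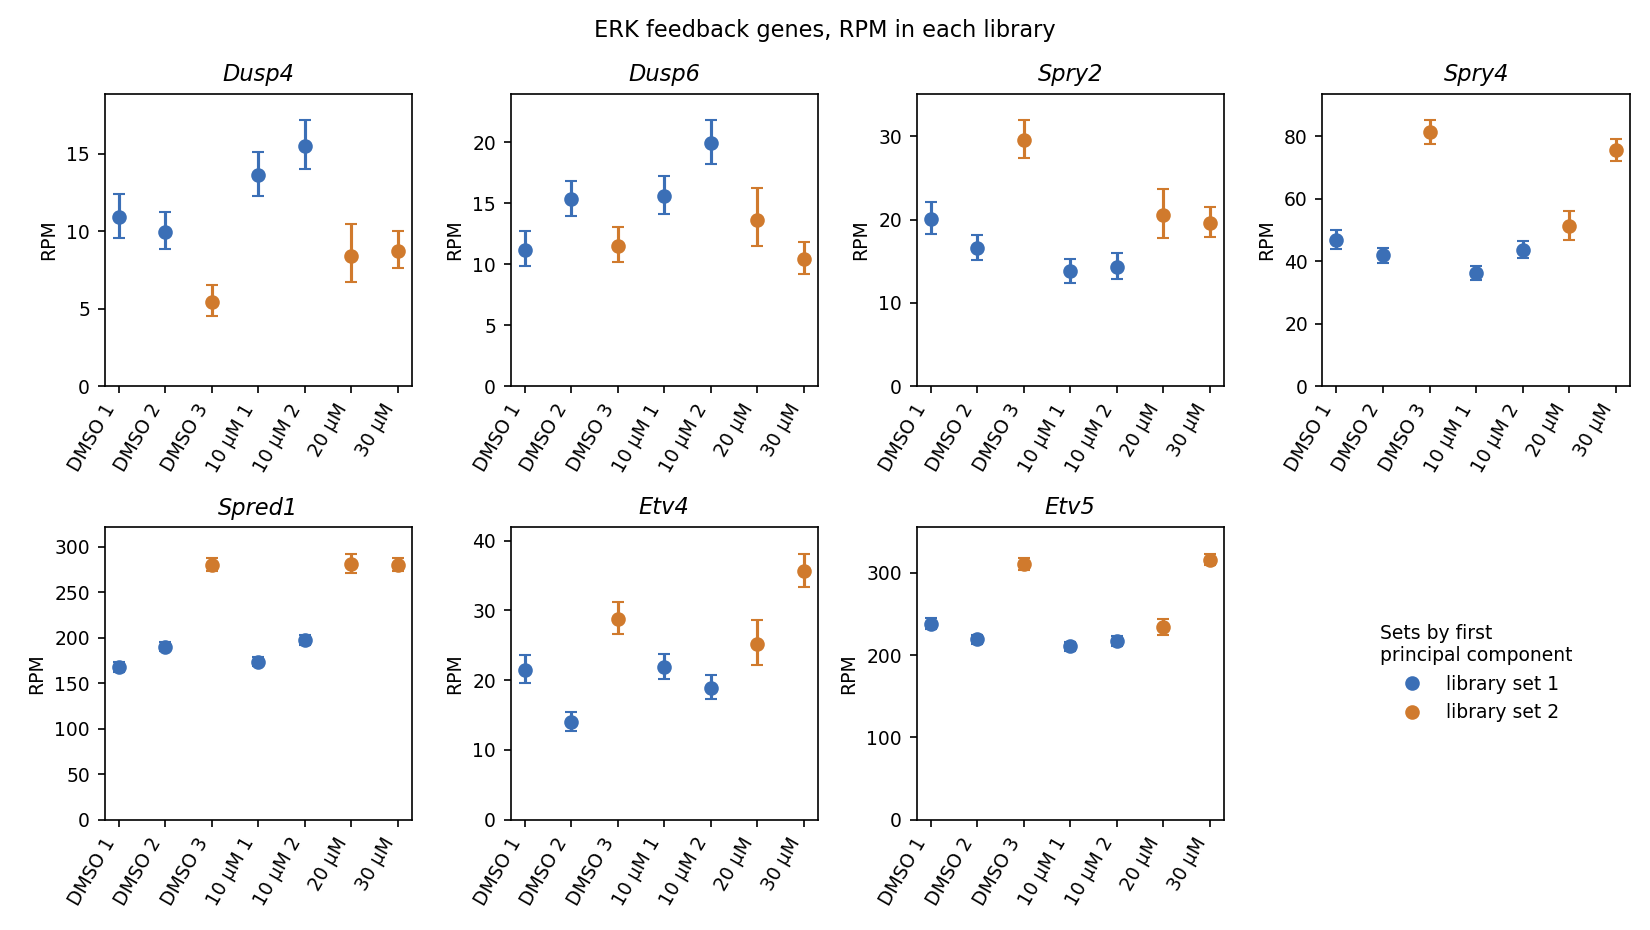
Level of each gene in each library, in RPM (linear axis from 0), with 95% Wilson intervals for counting error as bars and colour for the library set. Spred1, Spry4 and Etv4 were higher in every set 2 library than in every set 1 library, Dusp4 was lower in every set 2 library, and both 10 µM libraries lay above all DMSO libraries for Dusp4 and Dusp6.

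Per kilobase of gene, which is the scale on which genes can be compared, Etv5 had the highest mean level (4.28 ± 0.77 RPM per kb, SD, n = 7 libraries). It was followed by Spry2 (3.94 ± 1.09), Spred1 (3.67 ± 0.88), Spry4 (3.59 ± 1.17) and Dusp6 (3.27 ± 0.78). Neighbours in this part of the order did not differ beyond their spread, since each stood above the next in only 3 or 4 of the 7 libraries. Etv4 (1.52 ± 0.45 RPM per kb) was below Dusp6 in 7 of 7 libraries, and Dusp4 (0.844 ± 0.275) was below Etv4 in 6 of 7.

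Dusp4 encodes a nuclear phosphatase of ERK and other MAP kinases and lies on the plus strand at chr8:34807609-34819894 (mm10, with gene positions as the deposited table gives them, whose starts are counted from 0). Its level was 10.9, 9.99 and 5.45 RPM in DMSO replicates 1, 2 and 3, 13.6 and 15.5 RPM in 10 µM replicates 1 and 2, 8.39 RPM at 20 µM and 8.73 RPM at 30 µM. Both 10 µM libraries stood above all 3 DMSO libraries, and the lowest library was DMSO replicate 3. Against the DMSO library of its own set, Dusp4 was 1.25-fold and 1.55-fold in the 2 pairs at 10 µM, 1.54-fold at 20 µM and 1.60-fold at 30 µM. The last 2 ratios share DMSO replicate 3, in which Dusp4 had 117 read pairs (95% Wilson interval 4.55 to 6.53 RPM). This interval lay below those at 20 µM (6.72 to 10.5 RPM, from 78 read pairs) and 30 µM (7.61 to 10.0 RPM). Intervals of this kind cover counting error only. Against the mean of all DMSO libraries, the 20 µM and 30 µM levels were 0.955-fold and 0.994-fold, so the higher level at these doses rests on the choice of control.

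Dusp6 encodes a cytoplasmic phosphatase that is specific for ERK, and its gene is at chr10:99263230-99267489 on the plus strand. It was measured at 11.2, 15.3 and 11.5 RPM in the DMSO libraries, 15.6 and 19.9 RPM at 10 µM, 13.7 RPM at 20 µM and 10.4 RPM at 30 µM. As for Dusp4, the 10 µM libraries lay above all DMSO libraries, although 10 µM replicate 1 exceeded DMSO replicate 2 only by 15.6 to 15.3 RPM. Within the pairs Dusp6 was 1.40-fold and 1.30-fold. It was 1.19-fold at 20 µM and 0.904-fold at 30 µM against DMSO replicate 3, and for both doses the Wilson intervals (11.5 to 16.2 and 9.17 to 11.8 RPM) overlapped that of DMSO replicate 3 (10.2 to 13.0 RPM). Against the DMSO mean these doses were 1.08-fold and 0.820-fold.

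Spry2 encodes a Sprouty protein that restrains signalling between receptor tyrosine kinases and RAF, and lies at chr14:105891946-105896819 on the minus strand. Its level was 20.1, 16.6 and 29.6 RPM in the DMSO libraries, 13.8 and 14.4 RPM at 10 µM, 20.5 RPM at 20 µM and 19.6 RPM at 30 µM. The 10 µM libraries were the lowest of the 7, and DMSO replicate 3 was the highest. Spry2 was lower than the DMSO library of the set in 4 of 4 inhibitor libraries, at 0.687-fold and 0.866-fold in the pairs, 0.694-fold at 20 µM and 0.663-fold at 30 µM. The Wilson interval of DMSO replicate 3 (27.4 to 32.0 RPM) did not meet the intervals of the single libraries at the 2 higher doses, which ran from 17.8 to 23.7 RPM at 20 µM and from 17.9 to 21.5 RPM at 30 µM. Both higher doses share this control, and against the mean of all DMSO libraries they were 0.930-fold and 0.888-fold.

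Spry4, a second Sprouty gene, is at chr18:38586264-38601268 on the minus strand. It had 46.9, 41.8 and 81.3 RPM in DMSO, 36.1 and 43.7 RPM at 10 µM, 51.3 RPM at 20 µM and 75.4 RPM at 30 µM. The 10 µM and DMSO libraries overlapped, and the libraries of set 2 were all above those of set 1. Within sets the ratios were not on one side of 1, with 0.770-fold and 1.04-fold at 10 µM, 0.631-fold at 20 µM and 0.928-fold at 30 µM. Against the mean of all DMSO libraries the higher doses were 0.905-fold and 1.33-fold, so the direction at 30 µM turned with the control.

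Spred1 encodes a SPRED protein that recruits neurofibromin to inactivate RAS, and extends over 61.2 kb at chr2:117121070-117182277 on the plus strand. Its level was 167, 190 and 280 RPM in DMSO, 174 and 198 RPM at 10 µM, and 282 and 280 RPM at 20 µM and 30 µM. All set 2 libraries lay between 280 and 282 RPM whatever the dose, while set 1 did not exceed 198 RPM. Within the sets, Spred1 was 1.04-fold in both pairs and 1.00-fold at both higher doses, so it was above the matched DMSO library in 4 of 4 inhibitor libraries, never by more than 1.04-fold. Against the mean of all DMSO libraries it was 1.32-fold at both higher doses.

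Etv4 (chr11:101769741-101785310, minus strand) and Etv5 (chr16:22381312-22439570, minus strand) encode related ETS activators. Etv4 had 21.5, 14.0 and 28.8 RPM in DMSO, 21.9 and 18.9 RPM at 10 µM, 25.2 RPM at 20 µM and 35.6 RPM at 30 µM. The 10 µM libraries fell inside the DMSO range, and the 30 µM library was the highest. Etv4 was 1.02-fold and 1.35-fold in the pairs, 0.874-fold at 20 µM and 1.24-fold at 30 µM, but 1.17-fold and 1.66-fold against the mean of all DMSO libraries. Etv5 had 238, 219 and 310 RPM in DMSO, 210 and 217 RPM at 10 µM, 234 RPM at 20 µM and 316 RPM at 30 µM. Both 10 µM libraries were below all DMSO libraries, 10 µM replicate 2 by 217 to 219 RPM. Etv5 was 0.884-fold and 0.990-fold in the pairs, 0.755-fold at 20 µM and 1.02-fold at 30 µM, and 0.915-fold and 1.23-fold against the DMSO mean.

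**Figure D2:**
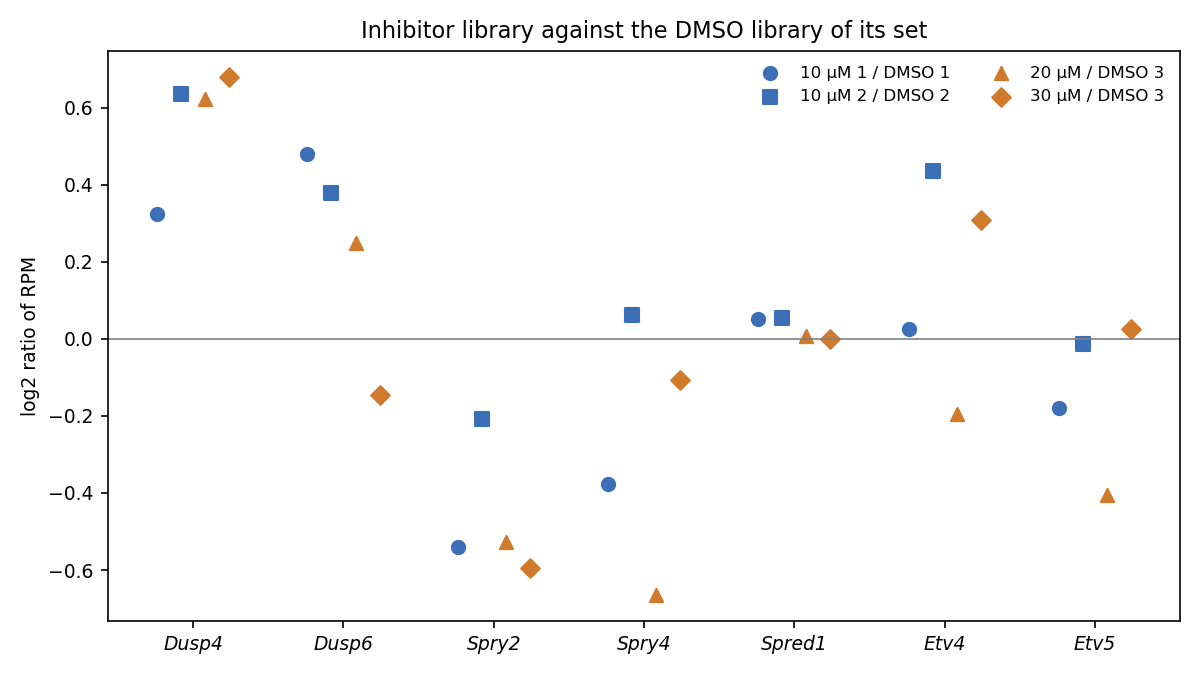
Log2 ratio of RPM (vertical axis) of each inhibitor library to the DMSO library of its set, by gene, with 1 point per library. Dusp4 was above 0 and Spry2 below 0 in 4 of 4 libraries, Spred1 was at most 1.04-fold its control, and the other genes had points on both sides of 0.

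The same orders were counted over all genes tested. Both 10 µM libraries were above all 3 DMSO libraries for 2 of the 7 genes (Dusp4 and Dusp6) and for 16.6% of the 13599 genes. They were below all 3 for 2 of the 7 (Spry2 and Etv5) and for 8.74% of all genes. In the comparison within sets, all 4 inhibitor libraries were above the matched DMSO library for 2 of the 7 genes (Dusp4 and Spred1) against 15.9% of all genes, and below it for 1 of the 7 (Spry2) against 14% of all genes. Between the library sets, all set 2 libraries were above all set 1 libraries for 3 of the 7 genes (Spry4, Spred1 and Etv4) against 18.7% of all genes, and below them for 1 of the 7 (Dusp4) against 39.8%. With 7 genes, shares of this size carry little precision.

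To ask whether METTL3 inhibition at 10 µM changed these genes, both 10 µM libraries were compared with the 3 DMSO libraries with limma on log2(RPM + 1), with Benjamini-Hochberg adjustment over 13599 genes. None of the 7 genes passed the adjusted threshold of 0.05, and neither did any other gene (0% of those tested, with 212 at an unadjusted p under 0.05). The edgeR and DESeq2 tests called 0 and 1 of all genes, none of them among the 7, with 224 and 396 at an unadjusted p under 0.05. The difference in log2(RPM + 1) was 0.72 for Dusp4 (95% interval -0.05 to 1.49), 0.46 for Dusp6 (-0.12 to 1.04), -0.58 for Spry2 (-1.24 to 0.09) and -0.44 for Spry4 (-1.16 to 0.28). It was -0.16 for Spred1 (-0.72 to 0.39), -0.02 for Etv4 (-0.77 to 0.74) and -0.24 for Etv5 (-0.66 to 0.18). All 7 intervals include 0. The median difference was -0.16 over the 7 genes and 0.09 over all genes tested.

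Replicates 1 and 2 of DMSO and 10 µM form pairs, and with the replicate number as a block (2 pairs, with DMSO replicate 3 left out) limma called 1 of the 7 genes and 1020 of all genes (7.5%). In this fit 2774 genes (20.4%) had an unadjusted p under 0.05. Dusp4 rose by 0.44 (SE 0.15, adjusted p = 0.045). For Dusp6 the paired difference was 0.40 (SE 0.14, adjusted p = 0.056) and for Spry2 it was -0.35 (SE 0.14, adjusted p = 0.099). The other genes had differences of 0.22 for Etv4, -0.15 for Spry4, -0.10 for Etv5 and 0.05 for Spred1, with adjusted p from 0.36 to 0.72. Over the 7 genes the median paired difference was 0.05, against -0.16 over the 5 libraries without pairing. Without DMSO replicate 3 and without pairing, each of the 7 genes had the same difference as in the pairs. The sign of the median therefore turned with the control left out, not with the pairing. Over all genes the median paired difference was 0.03. On the recovered read pairs of the same libraries, edgeR called 837 genes (6.15%) and 3 of the 7, in which Dusp4 (0.46, adjusted p = 0.019) and Dusp6 (0.40, adjusted p = 0.033) rose and Spry2 fell (-0.40, adjusted p = 0.032). This paired fit leaves 1 residual degree of freedom per gene, and limma gave every gene the spread of the common trend, so no spread of its own entered the test of a gene. When the same 4 libraries were compared without the pairing, none of the 7 was called and Dusp4 had an adjusted p of 0.89.

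**Figure D3:**
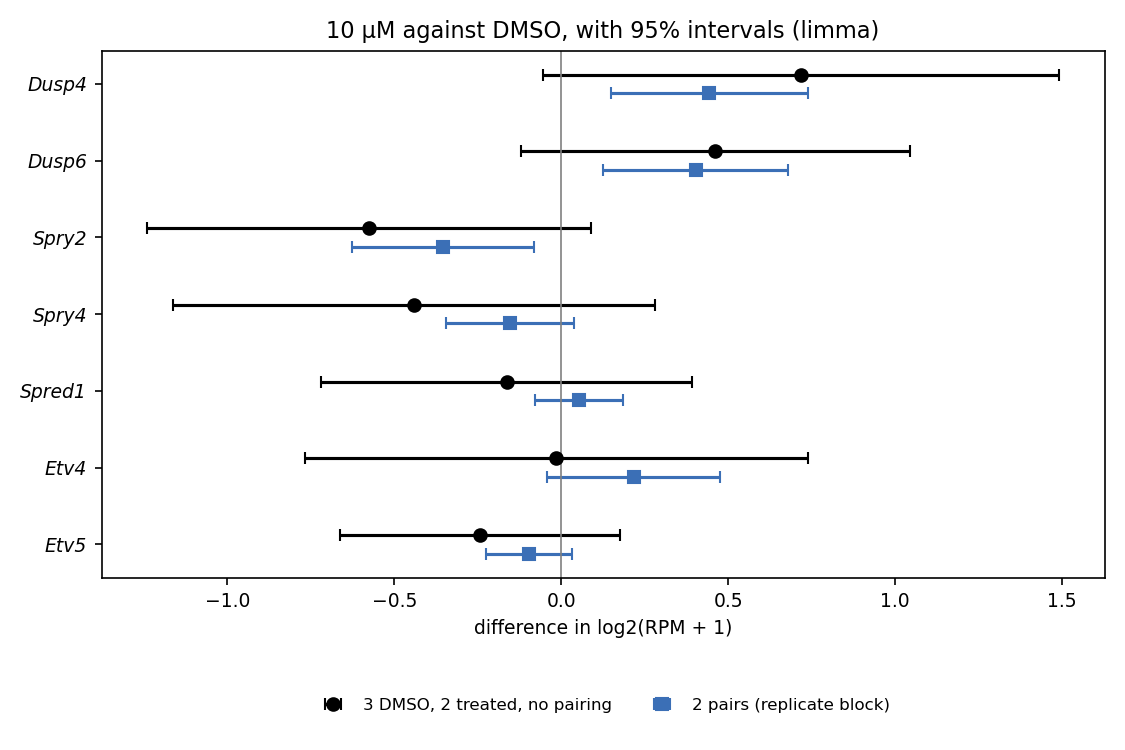
Difference in log2(RPM + 1) between 10 µM and DMSO (horizontal axis) with 95% intervals from limma, for 5 libraries without pairing (circles) and for the 2 pairs (squares). Without pairing all 7 intervals cover 0, and in the pairs those of Dusp4, Dusp6 and Spry2 do not. In the paired fit 20.4% of all genes had an unadjusted p under 0.05.

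The dose trend asked whether the genes followed the concentration of the inhibitor over all 7 libraries. In limma, 0 of the 7 genes and 0 of all genes passed (0%, with 1174 at an unadjusted p under 0.05), and edgeR also called 0, with 1244 at an unadjusted p under 0.05. DESeq2 called 129 genes, none of the 7, with 1807 at an unadjusted p under 0.05. The slope per 10 µM, in log2(RPM + 1), was largest for Etv4 (0.23, 95% interval -0.04 to 0.49) and Spred1 (0.16, -0.06 to 0.38). Over the same 7 libraries it was 0.11 for Spry4, 0.07 for Etv5, 0.01 for Dusp4, -0.04 for Spry2 and -0.05 for Dusp6, with adjusted p of 0.51 to 0.98 over the 7 genes. The median slope was 0.07 over the 7 genes and -0.04 over all genes tested. Without the 30 µM library the slope of Etv4 was 0.11, below those of Spred1 (0.14), Dusp4 (0.14) and Dusp6 (0.14).

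These slopes depended on how the sets were treated. With the library set as a term in the model, 27 genes were called (0.199%), and none of the 7. The slope of Dusp4 became 0.25 (95% interval 0.07 to 0.43, adjusted p = 0.27), and that of Spry2 became -0.23 (-0.38 to -0.07, adjusted p = 0.26). For both genes the unadjusted p was 0.009 in this limma fit, in which 1405 of all genes (10.3%) had an unadjusted p under 0.05. The slope of Spred1 fell to 0.01 (-0.10 to 0.12) and that of Etv4 to 0.10 (-0.10 to 0.30), while the slopes of Spry4 (-0.09) and Etv5 (-0.03) turned negative. The median slope with this term was 0.01 over the 7 genes and also 0.01 over all genes. In edgeR with the same term, 73 genes were called, none of them among the 7. Without DMSO replicate 3 the trend called 2485 genes (18.3%), and Etv4 (0.32, adjusted p = 0.045) and Spred1 (0.25, adjusted p = 0.037) rose with dose. In that comparison the DMSO and 10 µM libraries all belong to set 1 and both higher doses to set 2, and the set was not a term in the model.

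**Figure D4:**
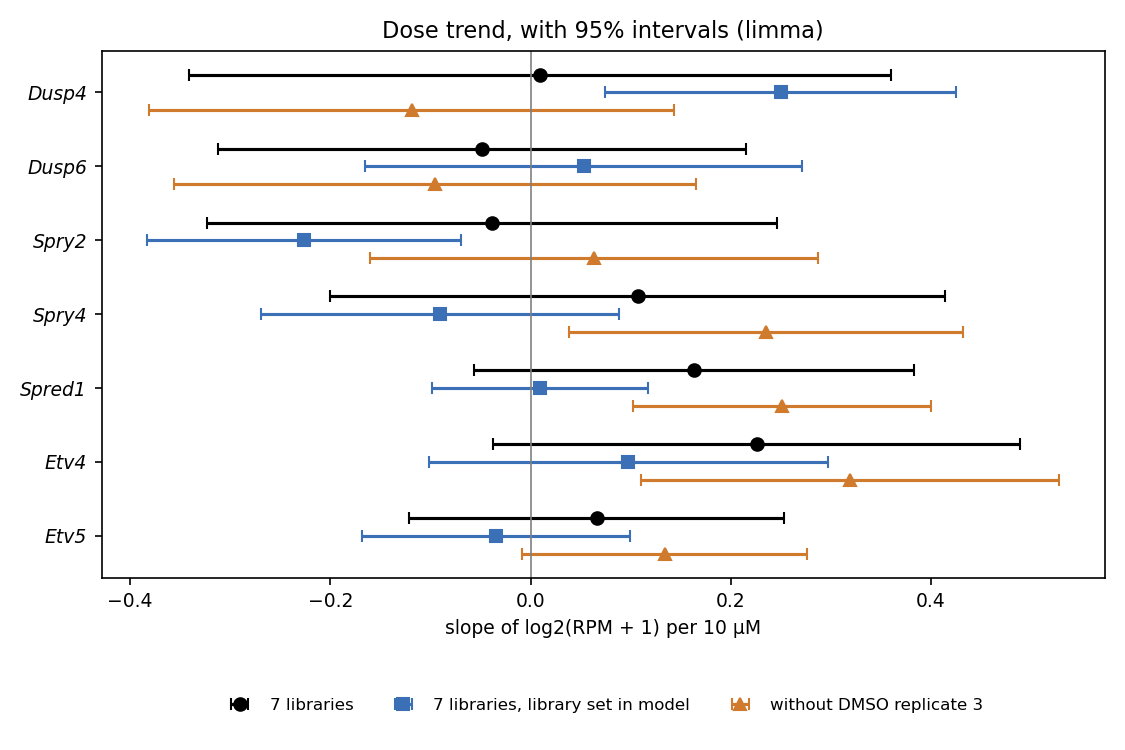
Slope of log2(RPM + 1) per 10 µM (horizontal axis) with 95% intervals from limma, for 7 libraries (circles), with the library set in the model (squares) and without DMSO replicate 3 (triangles). Spred1 moves from 0.16 to 0.01 when the set is in the model and to 0.25 without DMSO replicate 3. The intervals of Dusp4 and Spry2 leave out 0 only with the set in the model. In that fit 10.3% of all genes had an unadjusted p under 0.05.

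The 7 genes did not vary as 1 group. When each gene's levels were correlated over the 7 libraries with the mean standardised level of the other 6, Pearson's r was 0.87 for Spry4, 0.79 for Etv5, 0.79 for Spred1, 0.73 for Etv4 and 0.46 for Spry2, and it was -0.81 for Dusp4 and -0.71 for Dusp6. Both phosphatase genes thus ran opposite to the mean of the others. Only Dusp4 was divided by set, while Dusp6 overlapped between the sets. The mean profile of all 7 was lowest in DMSO replicate 2 (-0.50 SD units) and highest in DMSO replicate 3 (0.57) and at 30 µM (0.56). Of the 10731 other genes that averaged 5 RPM or more, those most like this profile were Ccdc97 (r = 0.99), Tfap4 (0.99), Fam178b (0.98), Naca (0.97) and Rchy1 (0.97), and those most unlike it were Tax1bp1 (-0.97), Srsf9 (-0.96) and Slc38a4 (-0.96). The points are 7 libraries that share the set structure, so these correlations are descriptions.

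In the rest of the pathway, 68 genes were listed by role, of which 60 passed the filter. Neither the unpaired 10 µM comparison nor the dose trend called any of them in limma, where no gene passed at all. In the pairs at 10 µM limma called 4 of the 60, all lower, and edgeR called 4, of which 1 was higher and 3 were lower. These 4 are 6.67% of the 60, close to the 7.5% (limma) and 6.15% (edgeR) of all genes called in the same fits. The median paired difference in limma was 0.01 over the 60 genes and 0.03 over all genes. Without DMSO replicate 3 the dose trend called 18.3% of all genes, with the set not in the model. It called 1 higher and 2 lower of 9 ligand and receptor genes, and 1 lower of 11 adaptor and RAS genes. Calls were 1 higher and 1 lower of 11 kinase genes, 2 lower of 16 other brakes, and 2 higher and 2 lower of 13 other nuclear factors.

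None of the 9 ligand and receptor genes tested was called in the pairs. Fgf4, the autocrine ligand of mES cells, had the highest mean RPM of the list over the 7 libraries, with no correction for gene length, although Fgfr1 was higher in all set 2 libraries. Fgf4 had 92.6, 100.4 and 36.0 RPM in DMSO, 99.0 and 112 RPM at 10 µM, 32.0 RPM at 20 µM and 34.7 RPM at 30 µM. Fgfrl1, a receptor that lacks the kinase domain and had the largest dose slope of this list (-0.40, but 0.15 with the library set in the model), followed the same division, with 14.4, 15.0 and 2.28 RPM in DMSO, 15.6 and 16.7 RPM at 10 µM, 3.66 RPM at 20 µM and 3.38 RPM at 30 µM. Both were thus lower in all set 2 libraries, as were 6 of the 9 ligand and receptor genes and 39.8% of all genes. The other 3 were higher in all set 2 libraries, among them Fgfr1 at 73.4 to 98.1 RPM.

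The 4 genes called by limma in the pairs at 10 µM, all lower, came from 4 lists, and at the background share of 7.5% their number says nothing about these lists. Among 11 adaptor and RAS genes this was Grb2, an adaptor that links receptors to the RAS activator SOS (-0.25, adjusted p = 0.031). Among 11 kinase genes it was Araf, an X-linked RAF kinase gene (-0.36, adjusted p = 6.8e-04). Among 16 other brakes it was Spred2, a relative of Spred1 (-0.26, adjusted p = 0.0023), and among 13 other nuclear factors Etv1, the third gene of the Etv4 and Etv5 subfamily (-0.30, adjusted p = 0.0089). In edgeR with the pairs Grb2, Araf and Etv1 were called again, Spred2 was not (adjusted p = 0.065), and Erf, an ETS repressor gene chosen after its values were seen, was higher (0.43, adjusted p = 0.039). Without the pairing, the same 4 libraries gave Grb2, Araf, Spred2 and Etv1 an adjusted p of 0.89 each in limma. Araf was lower than the matched DMSO library in 4 of 4 inhibitor libraries, with 92.7, 78.7 and 74.8 RPM in DMSO, 63.1 and 70.1 RPM at 10 µM, 49.8 RPM at 20 µM and 65.5 RPM at 30 µM. Etv1 had 79.6, 76.1 and 233 RPM in DMSO, 64.6 and 61.6 RPM at 10 µM, 148 RPM at 20 µM and 199 RPM at 30 µM, and like Etv4 it was higher in all set 2 libraries than in all set 1 libraries.

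Dusp9 and Klhl13, X-linked genes of proteins that restrain the pathway in XX mES cells, were not called in either main comparison or in the pairs (limma, adjusted p = 0.51 for Dusp9 and 0.15 for Klhl13 in the pairs). Dusp9 was low throughout, at 3.97, 3.39 and 2.24 RPM in DMSO, 3.67 and 5.33 RPM at 10 µM, 6.67 RPM at 20 µM and 2.74 RPM at 30 µM. Klhl13 ranged from 955 to 1273 RPM, with 973, 965 and 1105 RPM in DMSO, 1204 and 955 RPM at 10 µM, 1273 RPM at 20 µM and 1230 RPM at 30 µM. The authors' allelic ratio Xi/(Xi + Xa), the fraction of allele-specific reads from the chromosome that Xist silences, was 0.642, 0.639 and 0.617 for Klhl13 in DMSO, 0.651 and 0.640 at 10 µM, and 0.552 and 0.547 in the 20 µM and 30 µM libraries. For Araf it was 0.394, 0.416 and 0.439 in DMSO, 0.390 and 0.389 at 10 µM, and 0.444 and 0.353 in the 20 µM and 30 µM libraries. The number of reads behind each ratio is unknown, and none of the 7 ERK feedback genes is X-linked, so they have no such ratio.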

How the data were processed

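After a bowtie2 step against rRNA, the authors mapped reads to mm10 with polymorphic sites masked (STAR, unique hits), assigned read pairs by strand to whole transcripts (featureCounts) and deposited RPM values, made with edgeR from the total on genes. The authors also deposited the allelic ratio of X-linked genes as a fraction, for genes covered at SNPs by 10 or more reads over the samples. From the RPM steps, whole read pairs were recovered for 100% of values (tolerance 0.1 read pairs). Wilson intervals (95%) were taken on these, and they cover counting error only.

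The tests used limma 3.58.1 (eBayes, trended) on log2(RPM + 1) for genes averaging 1 RPM or more, with p adjusted by Benjamini-Hochberg and a threshold of 0.05. Changes of genes with low values are understated on this scale. Alternatives used a pseudocount of 0.1, a mean of at least 5 RPM or no filter, TMM factors, medians aligned, no trend, edgeR 4.0.16 (quasi-likelihood) and DESeq2 1.42.0 on the recovered read pairs, each library left out, the library set, and the replicate block. The edgeR fits with the block or the set were added after seeing the data. R 4.3.3, Python 3.11.15, numpy 2.4.6, pandas 2.3.3, scipy 1.17.1 and matplotlib 3.10.9 were used.

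DMSO and 10 µM replicates 1 and 2 were paired because the study split the wells of a biological replicate from one batch of cells. In these 4 libraries, deviations from the mean of replicates 1 and 2 of the same treatment correlated at 0.62 over 13599 genes. This is 1 value for both pairs. Deviations from the means of all libraries of each group correlated at 0.040 for pair 1 and 0.57 for pair 2. The 20 µM and 30 µM doses have 1 library each and no test of their own. Library sets follow the sign of the first principal component. Text names all 7 genes. From each pathway list it names those that passed limma, by adjusted p, in a main comparison or in the pairs at 10 µM. Where none did, the gene with the largest dose slope and the one with the highest mean are named. Dusp9 and Klhl13 are always named. The members, lists and alternatives in the text were chosen with earlier results of these data known.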

Additional observations from a re-analysis of the deposited data

How the results depend on the processing

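Of the alternatives run, most did not move the count of called members, which was 0 of 7 for both comparisons. At 10 µM it was 1 with the replicate block and 3 with the replicate block in edgeR, an alternative added after seeing the data. With dose it was 2 without DMSO replicate 3. Leaving out 1 replicate gave 0 to 2 called members for the dose trend and 0 to 0 at 10 µM. The signs of small estimates changed more often. With the library set in the model, the dose slopes of Dusp6 (0.0531), Etv5 (-0.0345) and Spry4 (-0.0904) changed sign, and in edgeR with the same term they were 0.0530, -0.0402 and -0.0934. Without the 30 µM library the slopes of Dusp6 (0.137), Etv5 (-0.0930) and Spry4 (-0.120) changed sign, and those of Dusp4 (0.140), Spry2 (-0.139) and Etv4 (0.108) moved without a change of sign. Without the 20 µM library that of Dusp4 was 0.0485. That of Spry2, -0.04 at first, was 0.00802 with TMM factors and 0.000423 with medians aligned. With 1 DMSO or 10 µM replicate left out at a time, the slope of Dusp4 ran from -0.119 to 0.0320 and that of Spry2 from -0.0731 to 0.0630, and both changed sign without DMSO replicate 3. Without that library the slopes of Spry4 (0.235) and Etv5 (0.134) also moved by over 1.5 times, as did that of Etv4 without DMSO replicate 2 (0.150). That of Dusp6 ran from -0.102 without DMSO replicate 1 to -0.0297 without DMSO replicate 2. At 10 µM the differences of Etv4 (0.217) and Spred1 (0.0526) were above 0 with the replicate block and without DMSO replicate 3, and with the block in edgeR they were 0.204 and 0.0310. With 1 replicate left out at a time they ran from -0.279 to 0.217 for Etv4 and from -0.317 to 0.0526 for Spred1, and Etv4 was also above 0 without DMSO replicate 1 (0.0151) or 10 µM replicate 2 (0.0844). The difference of Dusp6 ran from 0.293 without 10 µM replicate 2 to 0.628 without 10 µM replicate 1. Without DMSO replicate 3 those of Dusp4 (0.443), Spry2 (-0.353), Spry4 (-0.153) and Etv5 (-0.0958) were smaller in size and kept their sign. In all, 104 of 119 gene estimates for dose and 93 of 105 at 10 µM kept their direction and their side of the threshold. Among the alternatives, adjusted p of members ran from 0.037 to 1.00 for the dose trend and from 0.019 to 1 at 10 µM. Over all genes the dose trend called 0 in limma and 129 in DESeq2, 2485 without DMSO replicate 3 and 27 with the library set (73 in edgeR), and the 10 µM comparison called 0 in limma, 1 in DESeq2 and 1020 with the block (837 in edgeR). TMM factors shifted single libraries by -0.23 to 0.12 on the log2 scale. Depth limits the 20 µM library most, where Dusp4 rests on 78 read pairs. The cause of these differences was not tested.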

Other observations

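Of 23 tested markers of ES cells, fibroblasts, primed epiblast and endoderm, 9 were divided by library set without overlap, against 58.5% of all genes. Fn1, which ES cells express as well as fibroblasts, had 1092, 1148 and 603 RPM in DMSO replicates 1, 2 and 3, 869 and 999.9 RPM at 10 µM, 423 RPM at 20 µM and 461 RPM at 30 µM. The primed epiblast markers did not move together. Fgf5, which is also an ERK pathway ligand gene, had 0.571 to 1.02 RPM in set 1 and 3.40 to 3.98 RPM in set 2. Lef1 was also higher in all set 2 libraries (34.6 to 52.9 RPM in set 1 and 61.8 to 149 RPM in set 2). Otx2 and Dnmt3b overlapped between the sets. Pou3f1 did not pass the filter (mean 0.734 RPM). Its level was 0.622 to 1.41 RPM in set 1 and 0.323 to 0.419 RPM in set 2. In the pairs at 10 µM, 2 of the 4 primed markers tested fell in limma and in edgeR, the same fits that called Dusp4 and that called 7.5% and 6.15% of all genes. Without the pairing, none of the 4 was called in limma over the 5 libraries, as was the case for all genes. Otx2 was 19.7 and 20.2 RPM in DMSO and 11.3 and 16.8 RPM at 10 µM (limma, adjusted p = 0.0084), and Lef1 was 52.6 and 52.9 RPM in DMSO and 38.7 and 34.6 RPM at 10 µM (limma, adjusted p = 1.1e-05). Against DMSO replicate 3 (19.5 and 149 RPM), Otx2 was 8.17 and 8.99 RPM and Lef1 61.8 and 67.8 RPM at 20 µM and 30 µM. The dose fit with the library set called Lef1 lower and not Otx2. Fgf5 and Dnmt3b, the other primed markers tested, were not called in the pairs at 10 µM. Fgf5 was higher in both pairs (0.765 and 0.571 RPM in DMSO, 1.02 and 0.597 RPM at 10 µM). Dnmt3b went both ways (149 and 99.9 RPM in DMSO, 143 and 106 RPM at 10 µM). The 8 endoderm markers summed to 307 to 506 RPM over the libraries, most of it Lama1. Of the 6 tested, Lama1 was lower in all set 2 libraries (432 to 466 RPM in set 1 and 237 to 363 RPM in set 2). Dab2 was higher in all of them (23.9 to 32.3 and 39.5 to 64.7 RPM), and the others overlapped between the sets. Pdgfra had 1.77 RPM in DMSO replicate 3, 4.62 RPM at 20 µM and 3.47 RPM at 30 µM. The part of these markers in the levels of the ERK feedback genes was not tested.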
